A study of Mus musculus with 10 samples.

Results

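The libraries labelled Mga knockout were compared directly with those of Pcgf6 knockout in embryonic stem cells of the mouse, which divide in culture and can form every tissue of the body. The comparison holds 5 of the 10 libraries of the study, chosen by their titles: 3 of genotype Mga-/- and 2 of genotype Pcgf6-/-. The 3 wild type libraries enter only as reference levels, and 2 libraries of L3mbtl2-/- cells only help to estimate the spread. All cells were of strain C57BL/6, with no other allele or treatment in the labels, and they do not say if replicates came from separate clones or cultures. The p-values therefore measure the spread among these libraries only, and it may be technical. Below, Mga libraries 1, 2 and 3 are the libraries labelled Mga knockout replicates 1, 2 and 3, and Pcgf6 libraries 1 and 2 are those of Pcgf6 knockout.

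MGA and PCGF6 belong to the same protein complex, the Polycomb repressive complex PRC1.6, which keeps germ cell genes silent in embryonic stem cells. MGA is a large scaffold that pairs with MAX to bind E-box DNA and also carries a T-box DNA-binding domain. PCGF6 is the Polycomb ring finger subunit that joins the RING1 or RNF2 ubiquitin ligase to the complex. E2F6, with its partner TFDP1, is another DNA-binding subunit, and L3MBTL2, CBX3, HDAC1, HDAC2 and WDR5 are also found in it. The comparison asks how loss of a DNA-binding scaffold and loss of a ring finger subunit of that complex differ in their transcripts.

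The targeted genes were examined first. Pcgf6 (ENSMUSG00000025050, GRCm38 chromosome 19, 47033617 to 47050906) stood at 30.7, 28.2 and 29.4 FPKM (fragments per kilobase of exon, scaled to library size) in Mga libraries 1, 2 and 3 and at 9.56 and 9.82 FPKM in the Pcgf6 libraries. All Mga libraries were above both Pcgf6 libraries and near the wild type range of 27.6 to 29.7 FPKM, and the log2 difference was 1.59 ± 0.07 (SE, limma, adjusted p = 1.04e-05). Mga (ENSMUSG00000033943, chromosome 2, 119897228 to 119969581) stood at 8.03, 19.6 and 11.2 FPKM in Mga libraries 1, 2 and 3, at 14.5 and 14.1 FPKM in the Pcgf6 libraries and at 17.1 to 19.7 FPKM in wild type. Mga libraries 1 and 3 were below the Pcgf6 libraries, whereas the library labelled Mga knockout replicate 2 was above them and within the wild type range. The RNA level alone cannot say if that label is right. The log2 difference of Mga was -0.24 ± 0.30 (adjusted p = 0.583, and 0.73 with only the 5 libraries compared). Without Mga library 2 it was -0.59 (adjusted p = 0.0131). With only Mga libraries 1 and 3 and the Pcgf6 libraries fitted, it did not pass (adjusted p = 0.118). Library 2 held the highest Mga value, so leaving it out lowers the difference by construction. L3mbtl2 did not pass (log2 difference -0.01 ± 0.16, adjusted p = 0.981). Each value covers a whole gene, so the loss of a single exon could leave it unchanged.

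Depth was about 19400000 to 26700000 reads per library, recovered from the steps of the FPKM values, so 1 read of a 2 kb gene was worth 0.0187 to 0.0258 FPKM. The Mga libraries varied more than the other groups. The median SD of a gene on the log2 scale was 0.338 among the Mga libraries, 0.067 among the Pcgf6 libraries and 0.086 in wild type. Embryonic stem cell markers (Pou5f1, Sox2, Nanog and 8 others) were all above 0 in every library and summed to 3490 to 3730 FPKM in the Mga libraries, 4210 and 4330 in the Pcgf6 libraries and 2540 to 2740 in wild type. Fibroblast markers, which feeder cells would bring, summed to 1280, 523 and 726 FPKM in Mga libraries 1, 2 and 3 and to 515 and 511 FPKM in the Pcgf6 libraries. The share of reads in mitochondrial genes was 4.1%, 3.09% and 3.7% for the Mga libraries and 3.61% and 3.47% for the Pcgf6 libraries. Macrophage markers are given with the genes they move with, below. In bulk RNA, fewer cells of a type and less RNA per cell cannot be told apart.

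Of 15731 genes tested in a fit of all 10 libraries, 3550 (22.6%) differed between the 2 knockouts at an adjusted p below 0.05. They were 1887 higher (12%) and 1663 lower (10.6%) in the Mga libraries, of which 729 (4.63%) and 715 (4.55%) differed at least 2-fold. The 10-library fit shares 1 spread between tight and variable groups. In data simulated with the spread of each group as it was here, that fit called unchanged genes well beyond its threshold, whereas the fit of the 5 libraries stayed near it. The 10-library counts given here may therefore be too high, by an amount not known for the real data, and a gene that did not pass with the 5 libraries has weaker support. With only the 5 libraries compared, 198 genes passed (1.26%), 114 higher (0.725%) and 84 lower (0.534%), of which 197 were also among the 3550. With a spread for each group 2283 passed (14.5%), and with Mga libraries 1 and 3 alone against the Pcgf6 libraries, a comparison chosen after seeing the data, 2182 did (13.9%). Without Mga library 2, the one with Mga in the wild type range, 7003 passed (44.5%), and without Pcgf6 library 1 or 2, 854 or 815 did. The balance of 53.2% higher among the genes called turned to 40.0% under upper-quartile scaling (1455 higher and 2182 lower). That scaling moved the median of all genes from 0.05 to -0.05 on the log2 scale. No gene among the 3550 changed sign under any alternative. Alternatives that change only the spread keep the log2 difference as it is, so no sign could change there. Of the 3550 genes, 3515 also passed without Mga library 2, in the fit that called 7003, so this is a weak check. With no test, all Mga libraries were above both Pcgf6 libraries at 4025 genes (25.6%) and below both at 3332 (21.2%). Of 130 named genes that passed in the 10-library fit, 39 passed under all 21 alternatives run, and Apoc2, Cubn and Xlr5b under the 20 that tested them. The account below leads with those. For the other genes named, a second adjusted p is that of the 5-library fit.

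Among the gene lists, those of germ cells had the largest shares of genes called higher in the Mga libraries. Of 93 tested genes in 5 germ cell lists, 42 were higher and 4 lower, with a median log2 difference of 1.07, beside 12% higher, 10.6% lower and a median of 0.05 over all tested genes. With only the 5 libraries, 16 were higher (114 of all tested genes, 0.725%). A germ cell gene silent elsewhere could be tested through the Mga libraries alone, which favours calls in that direction. The medians by library were 1.38, 0.30 and 1.68 in Mga libraries 1, 2 and 3, so library 2 was nearest to the Pcgf6 libraries. Both knockouts were above wild type on these lists, by a median of 2.13 in the Mga libraries and 1.12 in the Pcgf6 libraries. The 2 comparisons share the wild type libraries.

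RNA regulators of germ cells and genes of meiotic entry were higher at 8 of 19 tested and lower at none, and Ddx4, Dazl and Zcwpw1 also passed with only the 5 libraries. Ddx4, a germ cell RNA helicase, stood at 168, 170 and 181 FPKM in Mga libraries 1, 2 and 3 and at 42 and 45 FPKM in the Pcgf6 libraries. The groups did not overlap, both were above the wild type range of 9.21 to 10.2 FPKM, and the log2 difference was 1.99 ± 0.07 (SE, adjusted p = 5.92e-06). Dazl, an RNA-binding protein needed for germ cell development, stood at 312, 138 and 262 FPKM against 5.47 and 5.7 FPKM, with wild type at 0.776 to 1.37 FPKM. Library 2 held the lowest of the Mga values, and each of them was far above the Pcgf6 libraries (log2 difference 5.30 ± 0.33, adjusted p = 3.58e-05). Zcwpw1, a histone reader that acts at meiotic recombination sites, stood at 36.1, 50 and 45.3 FPKM against 4.19 and 4.49 FPKM. Its Pcgf6 libraries lay close above wild type (2.38 to 2.65 FPKM), and the log2 difference was 3.30 ± 0.13 (adjusted p = 5.92e-06). Meioc, a meiosis regulator, differed less, at 40.4, 27.5 and 26.9 FPKM against 15.2 and 14.2 FPKM (log2 difference 1.07, adjusted p = 0.00407 and 0.0827).

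Genes of the synaptonemal complex, which joins paired chromosomes in meiosis, and of meiotic cohesin were higher at 9 of 17 tested and lower at none, with a median of 1.94, and 5 were higher with only the 5 libraries. Tex12, a subunit of the central element, stood at 134, 146 and 149 FPKM in Mga libraries 1, 2 and 3 and at 2.02 and 2.09 FPKM in the Pcgf6 libraries. The 3 Mga libraries were nearly level, library 2 included, and wild type was at 0.121 to 0.609 FPKM (log2 difference 6.05 ± 0.39, adjusted p = 4.76e-05). Tex12 lies within Il18 on the opposite strand, so reads of these genes cannot be told apart where they overlap. Hormad1, which coats chromosome axes, stood at 123, 167 and 134 FPKM against 6.7 and 4.84 FPKM. Its Pcgf6 libraries lay close to the wild type range of 2.99 to 4.69 FPKM, and the log2 difference was 4.60 ± 0.21 (adjusted p = 1.04e-05). Stag3, a meiotic cohesin subunit, stood at 37.6, 75.8 and 64.4 FPKM against 4.66 and 4.53 FPKM (log2 difference 3.60, adjusted p = 6.49e-05). Majin, which ties telomeres to the nuclear envelope in meiosis, stood at 14.2, 25 and 20.7 FPKM against 0.446 and 0.881 FPKM (log2 difference 4.74, adjusted p = 6.44e-05). In both genes Mga library 2 was the highest and library 1 the lowest. Syce1, another central element subunit, was chosen after its values were seen: it was already high in Pcgf6 knockout, at 65.7, 85.1 and 80.2 FPKM against 45.3 and 45.9 FPKM, with wild type at 3.66 to 3.83 FPKM (log2 difference 0.75, adjusted p = 0.00347 and 0.0806).

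Meiotic recombination genes were higher at 8 of 16 tested and lower at 1, and Rnf212 was the member that also passed with only the 5 libraries. Rnf212, a regulator of crossovers, stood at 22.9, 21.9 and 27.1 FPKM in Mga libraries 1, 2 and 3 and at 0.307 and 0.221 FPKM in the Pcgf6 libraries, which had 16 reads in all. The Pcgf6 libraries were close to wild type (0.133 to 0.149 FPKM), and the log2 difference was 6.05 ± 0.29 (adjusted p = 1.13e-05). Dmc1, the meiotic recombinase, stood at 16, 11.2 and 13.2 FPKM against 7.13 and 7.63 FPKM (log2 difference 0.84, adjusted p = 0.00528 and 0.102). Psmc3ip, a cofactor of the recombinases, was the member that was lower, at 10.6, 11.5 and 10.4 FPKM against 18.4 and 18.3 FPKM (log2 difference -0.75, adjusted p = 0.00114 and 0.0618). It overlaps Mlx on the opposite strand, which was also lower.

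Genes of the piRNA pathway, which silences transposons in germ cells, were higher at 8 of 21 tested and lower at 2, and 4 were higher with only the 5 libraries. Mov10l1, a helicase of piRNA production, stood at 83.5, 96.3 and 135 FPKM in Mga libraries 1, 2 and 3 and at 14.1 FPKM in both Pcgf6 libraries. Both knockouts were above wild type (0.653 to 1.3 FPKM), and the log2 difference was 2.85 ± 0.26 (adjusted p = 0.000385). Tdrd9, a Tudor domain helicase, stood at 50.6, 13.7 and 60.6 FPKM against 0.358 and 0.362 FPKM. Library 2 was again the lowest Mga value, and the log2 difference was 6.25 ± 0.53 (adjusted p = 0.00025). Stk31 (log2 difference 2.08, adjusted p = 0.000546) and Gpat2 (log2 difference 2.44, adjusted p = 0.00073) did not overlap between the groups either. The 2 members that were lower were PIWI genes, named after their values were seen. Piwil4 stood at 0.15, 0.0153 and 0.0309 FPKM against 0.807 and 0.7 FPKM (log2 difference -2.45, adjusted p = 0.00462 and 0.0864). Piwil1 stood at 0.222, 0.881 and 0.306 FPKM against 1.34 and 1.29 FPKM (log2 difference -1.49, adjusted p = 0.0419 and 0.203). Both are near the lower limit of the values tested.

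Testis paralogues of housekeeping genes and germ cell surface genes were higher at 9 of 20 tested and lower at 1, and 3 were higher with only the 5 libraries. Tuba3a, a testis alpha-tubulin, had the smallest p of all tested genes. It stood at 389, 383 and 430 FPKM in Mga libraries 1, 2 and 3, at 22.1 and 22.2 FPKM in the Pcgf6 libraries and at 6.93 to 9.32 FPKM in wild type (log2 difference 4.17 ± 0.12, adjusted p = 3.05e-06). The 3 groups did not overlap. Reads of Tuba3a and of its close copy Tuba3b could be shared, so how the 2 divide is uncertain. Slc25a31, an ADP/ATP carrier of germ cells, stood at 73.4, 89.2 and 97.3 FPKM against 3.3 and 3.47 FPKM (log2 difference 4.63 ± 0.19, adjusted p = 5.92e-06). Hsf2bp, a meiotic recombination factor, stood at 27.4, 42 and 35.7 FPKM against 8.01 and 8.16 FPKM, the latter just below the wild type range of 8.26 to 10.1 FPKM (log2 difference 2.08, adjusted p = 0.000192). Ldhc, the testis lactate dehydrogenase, went the other way, at 0.153, 0.183 and 0.369 FPKM against 1.83 and 1.76 FPKM (log2 difference -2.55, adjusted p = 0.00184 and 0.0574).

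**Figure D1:**
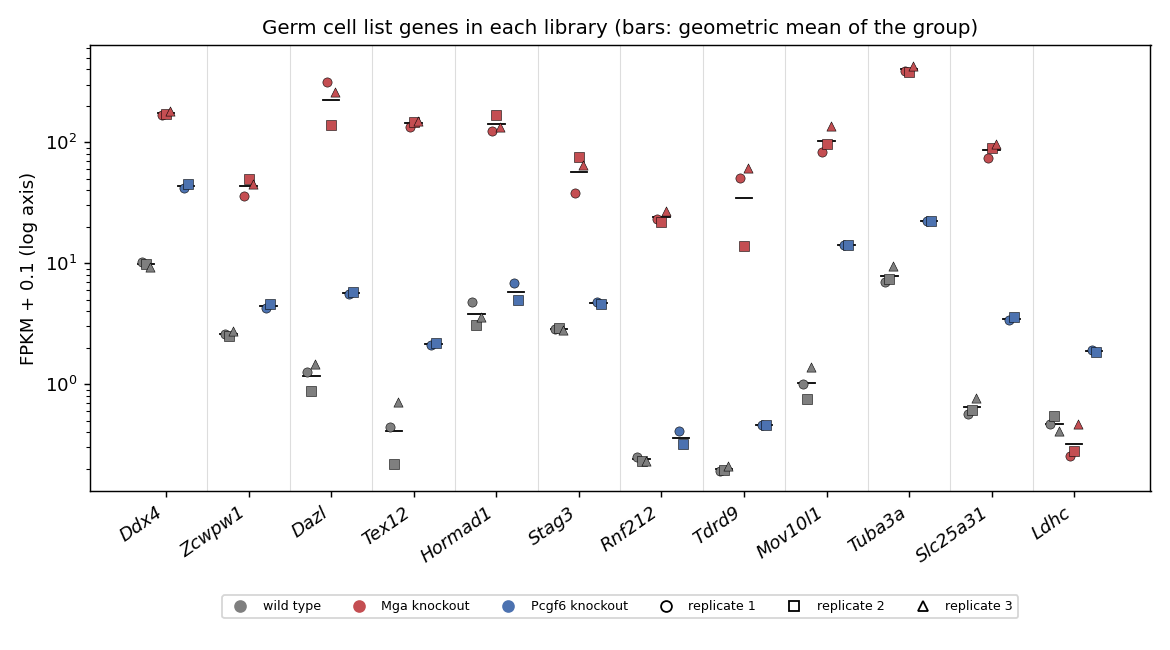
FPKM + 0.1 on a log axis for 12 genes of the germ cell lists in each library of wild type (grey), Mga knockout (red) and Pcgf6 knockout (blue), with the marker shape giving the replicate and the bar the geometric mean. The first 11 genes are higher in all Mga libraries than in both Pcgf6 libraries, Tex12 at 134 to 149 against 2.02 and 2.09 FPKM, and Ldhc is lower.

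Within the germ cell genes, the Mga libraries did not keep 1 order. Tex12, Ddx4, Tuba3a, Rnf212 and Slc25a31 were about level in the 3 libraries. Stag3, Majin, Zcwpw1 and Hsf2bp were highest in library 2 and lowest in library 1. Other genes were much lower in Mga library 2 than in libraries 1 and 3. Lypd4, a surface protein gene, stood at 42.9, 1.19 and 28.7 FPKM in Mga libraries 1, 2 and 3 and at 0.0622 and 0.186 FPKM in the Pcgf6 libraries (log2 difference 5.76, adjusted p = 0.0134 and 0.134). Ccnb3, a meiotic cyclin outside the lists, stood at 32.6, 2.08 and 35.8 FPKM against 0.0377 and 0.0339 FPKM (log2 difference 6.65, adjusted p = 0.0039 and 0.0815, and 0.232 with limma-voom on recovered reads, the highest over the alternatives). Tex101, chosen after its values were seen, stood at 559, 53.4 and 551 FPKM against 8.94 and 8.1 FPKM (log2 difference 4.89, adjusted p = 0.00638 and 0.101). Mga library 2 was still above both Pcgf6 libraries in each of these genes. Whether the wild type level of Mga in library 2 has a part in this was not tested.

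The promoters of 5 germ cell genes are printed because they were the germ cell genes with the smallest p that had a promoter in the RefSeq table. Each runs from 250 bases before to 50 after a start listed in that table (GRCm38.p6, 5′ to 3′ on the gene's strand). The table lists a pair of starts for Hormad1, which nearly coincide and of which the first is shown, and a pair for Zcwpw1, of which the second is shown because its window spans the gene's start in GENCODE. Capitals mark CACGTG, the E-box bound by MAX dimers, and TCCCGC or its complement GCGGGA, a core of E2F sites.
Tuba3a, chr6:125286032-125286331, minus strand: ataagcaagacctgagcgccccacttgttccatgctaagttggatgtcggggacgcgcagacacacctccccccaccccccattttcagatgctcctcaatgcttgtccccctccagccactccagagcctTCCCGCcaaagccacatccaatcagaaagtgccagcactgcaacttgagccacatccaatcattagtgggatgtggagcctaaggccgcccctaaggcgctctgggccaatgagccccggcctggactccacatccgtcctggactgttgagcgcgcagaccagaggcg
Ddx4, chr13:112652261-112652560, minus strand: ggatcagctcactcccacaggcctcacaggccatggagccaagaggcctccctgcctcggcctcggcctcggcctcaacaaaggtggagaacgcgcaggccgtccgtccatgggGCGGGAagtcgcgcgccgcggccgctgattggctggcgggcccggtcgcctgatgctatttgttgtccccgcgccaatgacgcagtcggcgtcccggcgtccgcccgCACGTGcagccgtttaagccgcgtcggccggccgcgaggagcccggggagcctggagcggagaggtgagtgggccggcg
Zcwpw1, chr5:137787552-137787851, plus strand: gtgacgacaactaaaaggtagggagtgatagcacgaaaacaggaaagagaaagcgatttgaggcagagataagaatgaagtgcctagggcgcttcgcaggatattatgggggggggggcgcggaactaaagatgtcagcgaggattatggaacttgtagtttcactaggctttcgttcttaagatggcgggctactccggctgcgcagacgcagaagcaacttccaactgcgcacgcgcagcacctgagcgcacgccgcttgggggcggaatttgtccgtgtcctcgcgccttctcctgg
Slc25a31, chr3:40708621-40708920, plus strand: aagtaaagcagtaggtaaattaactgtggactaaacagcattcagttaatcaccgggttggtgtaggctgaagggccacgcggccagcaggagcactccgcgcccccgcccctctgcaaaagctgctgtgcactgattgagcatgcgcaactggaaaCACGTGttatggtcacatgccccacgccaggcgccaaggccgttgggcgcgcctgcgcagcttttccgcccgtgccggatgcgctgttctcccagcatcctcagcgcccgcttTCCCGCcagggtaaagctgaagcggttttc
Hormad1, chr3:95559427-95559726, plus strand: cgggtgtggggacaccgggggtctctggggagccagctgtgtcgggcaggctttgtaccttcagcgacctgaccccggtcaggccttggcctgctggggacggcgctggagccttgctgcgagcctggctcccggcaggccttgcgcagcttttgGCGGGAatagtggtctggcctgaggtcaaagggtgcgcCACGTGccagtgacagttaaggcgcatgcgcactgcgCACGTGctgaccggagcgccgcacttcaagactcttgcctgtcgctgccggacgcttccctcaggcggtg
Ddx4, Slc25a31 and Hormad1 held both motifs, Tuba3a held only the E2F motif, and Zcwpw1 held neither in either of its windows.

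Motifs were counted over all promoters in the table that matched by symbol, which were 10904 of the 15731 tested genes, searching both strands of the first listed window. The E-box CACGTG and the E2F core TCCCGC were searched, and also TCACAC, the core of T-box sites. Adjoining motifs can share letters, and each was counted on its own. CACGTG was found in 10.4% of the promoters of tested genes, in 11.5% of those called higher in the Mga libraries and in 10.6% of those called lower. With only the 5 libraries, 10 of the 52 promoters of genes called higher held it (19.2%). It was found in 22 of the 76 tested germ cell list promoters (28.9%) and in 13 of the 36 called higher (36.1%). TCCCGC was found in 35.5% of all tested, 38.0% of those higher, 33.8% of those lower and 17 of the 36 germ cell promoters called higher (47.2%). TCACAC was found in 10.6%, 9.57%, 11.8% and 4 of 36 (11.1%) in the same order. Over all 27025 promoters of the table the shares were 7.24%, 20% and 14.4%. A CACGTG and a TCCCGC together were in 431 of the 10904 tested promoters and in 7 of the 36. In the 10-library fit, genes called in either direction held CACGTG about as often as all tested genes, and the higher share was that of the germ cell lists. A match is a description of letters and no sign of binding.

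The largest differences of all were in processed pseudogenes, copies made from a spliced transcript of a parent gene. Rps3a2 stood at 211, 291 and 244 FPKM in Mga libraries 1, 2 and 3, at 1.14 and 1.37 FPKM in the Pcgf6 libraries and at 1.64 to 3.32 FPKM in wild type (log2 difference 7.51 ± 0.31, adjusted p = 5.92e-06). Rps3a3 stood at 71.3, 101 and 80.6 FPKM against 0.108 and 0 FPKM. With 4889 against 2 reads its rate was 1430-fold higher (95% counting interval 394 to 11800, exact, for counting error only). Rpl34-ps1 stood at 57.1, 87 and 62.8 FPKM and had no reads in the Pcgf6 libraries, so it was at least 346-fold higher by a floor of 3 reads over the group. Tdgf1-ps1 stood at 10.5, 10.5 and 12 FPKM, with no reads in the Pcgf6 or wild type libraries, at least 80.5-fold higher than in Pcgf6 knockout. All 3 Mga libraries held these pseudogenes at like levels, library 2 included.

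Atp6v0c-ps2 had 1 read in the Pcgf6 libraries and a rate 439-fold higher in the Mga libraries (95% counting interval 78.6 to 17400). Rpl15-ps2 also had 1 read there and a rate 315-fold higher (56.3 to 12500). BC002163, with none, was at least 43.5-fold higher, and its call was lost with a spread for each group (adjusted p = 0.0737). Of 492 processed pseudogenes tested, 81 were higher (16.5%) and 17 lower (3.46%), beside 12% and 10.6% of all tested genes. A copy silent elsewhere could enter the test through the Mga libraries alone, and could then only be higher. The shares are therefore not a like comparison. Of the 29 copies that were higher by at least 3 on the log2 scale, 27 also passed in the 5-library fit. Among genes that are not processed pseudogenes, 80 were higher by at least 3. In 23 of the 29, every Mga library was at 1 FPKM or more and every Pcgf6 and wild type library was under 1 FPKM.

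The parent genes were not higher with their copies. Rps3a1, which encodes a ribosomal protein of the small subunit, stood at 678, 885 and 748 FPKM in Mga libraries 1, 2 and 3 and at 1210 and 1230 FPKM in the Pcgf6 libraries (log2 difference -0.67, adjusted p = 0.00438 and 0.115). Tdgf1, a Nodal co-receptor, stood at 366, 382 and 459 FPKM against 467 and 465 FPKM (log2 difference -0.22, adjusted p = 0.133). Rpl34 (log2 difference -0.24, adjusted p = 0.0894), Rpl15 (0.03, adjusted p = 0.855) and Atp6v0c (0.04, adjusted p = 0.796) did not pass either. The parents were taken by symbol, after the values of the copies were seen. Copy and parent can be near-identical, and their sequences were not compared here. How the authors' mapping and counting split their reads is uncertain, and whether it differed between libraries was not tested.

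**Figure D2:**
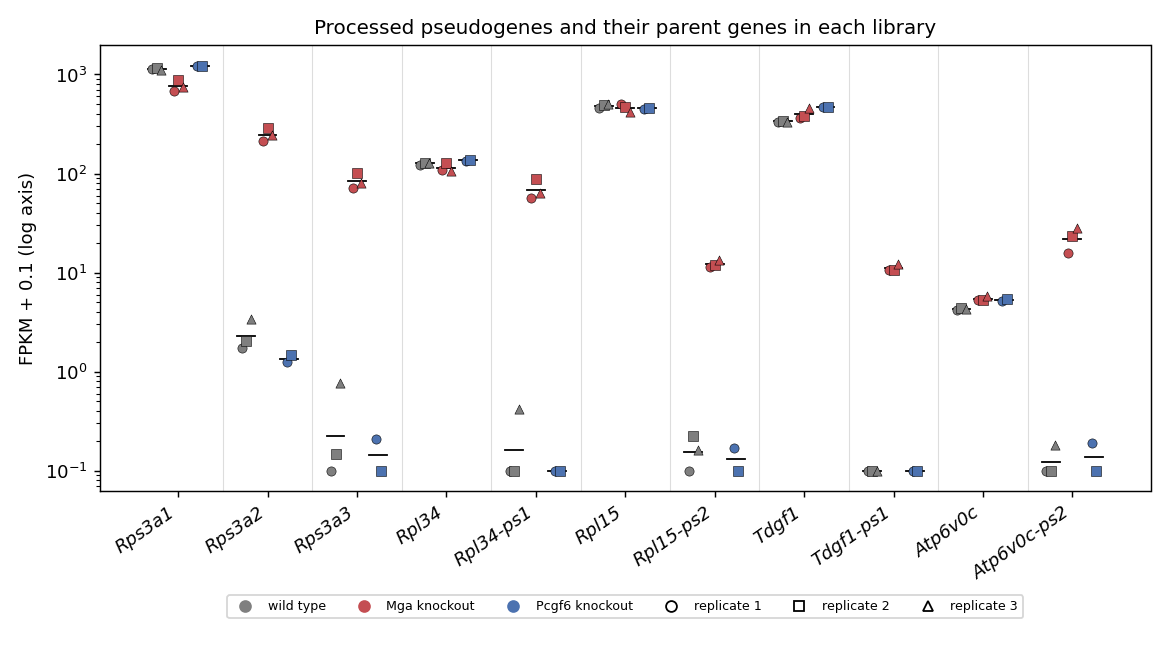
FPKM + 0.1 on a log axis for 6 processed pseudogenes and their 5 parent genes in each library, coloured by group with the marker giving the replicate. The copies lie between 10.5 and 291 FPKM in the Mga libraries and at or under 3.32 FPKM in the Pcgf6 and wild type libraries, while the parents lie within 2-fold of each other across groups.

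Genes lower in the Mga libraries included a group found in macrophages. Of 22 macrophage markers tested, 18 were lower (81.8%, beside 10.6% of all tested genes) and none higher. The median log2 difference was -2.68, and 5 were lower and none higher in the 5-library fit. C1qa, a complement subunit, stood at 0.0775, 0.0397 and 0 FPKM in Mga libraries 1, 2 and 3 and at 6.13 and 6.16 FPKM in the Pcgf6 libraries. With 272 against 3 reads its rate was 155-fold higher in the Pcgf6 libraries (95% counting interval 52.6 to 759). C1qc and Pf4, with 1 read each in the Mga libraries, had rates 487-fold (86.7 to 19300) and 346-fold (61.5 to 13700) higher in Pcgf6 knockout. Lyz2, the macrophage lysozyme, stood at 7.26, 0.196 and 0.197 FPKM against 153 and 159 FPKM (log2 difference -7.49, adjusted p = 0.00391 and 0.0846). The 26 listed markers summed to 51.4, 68.6 and 30.8 FPKM in the Mga libraries, to 281 FPKM in each Pcgf6 library and to 202 to 209 FPKM in wild type. Adgre1, Csf1r and Spi1 were at 0.0255 to 0.286, 0.0845 to 0.669 and 0.261 to 0.324 FPKM in the Mga libraries. In the Pcgf6 libraries they were at 1 and 1.15, 1.03 and 1.08, and 0.894 and 1.28 FPKM. None of them passed in the 5-library fit (adjusted p = 0.109, 0.211 and 0.096). Cd68, another listed marker, overlapped between the groups, at 15.9, 31.2 and 8.01 FPKM against 22 and 20.5 FPKM (adjusted p = 0.516 and 0.678). It held 31.2 of the 68.6 FPKM summed in Mga library 2. Of 8 endothelial and blood markers tested, limma called none in either direction, with 1 lower at an unadjusted p below 0.05 and 1 lower with limma-voom on recovered reads.

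Xlr5a, an X-linked member of a family expressed in lymphocytes and germ cells, was high only in the Pcgf6 libraries among the 8 libraries shown. It stood at 0.0219, 0.0448 and 0.0677 FPKM in Mga libraries 1, 2 and 3, at 6.49 and 6.39 FPKM in the Pcgf6 libraries and at 0 to 0.0454 FPKM in wild type (log2 difference -5.51 ± 0.34, adjusted p = 3.46e-05). Its neighbour in the family Xlr5b followed, at 0 to 0.0716 against 1.93 and 2.1 FPKM (log2 difference -3.95, adjusted p = 0.000667), and reads may be shared among Xlr copies. Magea8 was the MAGE family member that was higher in the Mga libraries, at 0.71, 0.125 and 0.784 FPKM against 0 and 0.0314 FPKM, 65 reads against 1 (log2 difference 2.25, adjusted p = 0.0325 and 0.166). In the MAGE and Xlr lists together 1 of 18 was higher (5.56%) and 2 lower (11.1%), with a median of 0.03, beside 12% and 10.6% of all tested genes.

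The lists of signalling and lineage genes stand beside 12% higher and 10.6% lower over all tested genes. Bmp4, a ligand of the BMP pathway, stood at 6.56, 8.5 and 7.3 FPKM in Mga libraries 1, 2 and 3 and at 22.8 and 23 FPKM in the Pcgf6 libraries. Both groups were above the wild type range of 3.9 to 4.27 FPKM, the Pcgf6 libraries more so (log2 difference -1.61 ± 0.12, adjusted p = 9.98e-05). Nodal, a ligand that keeps the epiblast undifferentiated, stood at 107, 59.7 and 90.4 FPKM against 33.6 and 37.6 FPKM (log2 difference 1.23, adjusted p = 0.00473 and 0.0948). In the list of Nodal, BMP and FGF signalling, 4 of 37 were higher (10.8%) and 6 lower (16.2%), with a median of -0.07, and Bmp4 alone passed with only the 5 libraries. Tfap2a, a transcription factor of trophoblast and ectoderm, stood at 2.03, 1.78 and 2.19 FPKM against 0.372 and 0.446 FPKM (log2 difference 2.05, adjusted p = 0.00073). Trophoblast and simple epithelium genes were higher at 3 of 22 and lower at 3 (13.6% each), and Tfap2a alone passed with only the 5 libraries. Cubn, an endocytic receptor of visceral endoderm, was high only in the Pcgf6 libraries among those shown, at 0.146, 0.0885 and 0.156 FPKM against 1.41 and 1.4 FPKM, with wild type at 0.0451 to 0.0588 FPKM (log2 difference -2.72, adjusted p = 0.000755). Primitive and extraembryonic endoderm genes were higher at 1 of 29 (3.45%) and lower at 5 (17.2%), and Cubn and Apoc2 were lower with only the 5 libraries. Of 39 Hox genes listed, 20 were tested, of which 6 were higher and none lower (median 1.10), all at low levels. A gene silent elsewhere could enter the test through the Mga libraries alone, and could then only be higher. The filter may therefore favour this count and median. In the 5-library fit no Hox gene passed, and 7 were higher at an unadjusted p below 0.05. At that unadjusted threshold 3535 of all 15731 tested genes differed in either direction. Hoxc13 stood at 1.83, 3.41 and 3.84 FPKM against 0.752 and 0.566 FPKM (log2 difference 1.99, adjusted p = 0.00662 and 0.0827).

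Pluripotency genes were higher at 7 of 31 and lower at 6 (22.6% and 19.4%), with a median of 0.03, and Nanog and Zfp42 also passed with only the 5 libraries. Nanog, a core pluripotency factor, stood at 417, 444 and 463 FPKM in Mga libraries 1, 2 and 3 and at 218 and 219 FPKM in the Pcgf6 libraries. Both groups were above wild type (142 to 146 FPKM), and the log2 difference was 1.01 ± 0.07 (adjusted p = 5.9e-05). Zfp42, a marker of the naive state also called Rex1, stood at 153, 218 and 154 FPKM against 41.1 and 41.4 FPKM (log2 difference 2.06 ± 0.14, adjusted p = 6.44e-05). Its Pcgf6 libraries were just above the wild type range of 35.8 to 37.1 FPKM. Prdm14, Klf4, Tbx3, Tcl1 and Fbxo15 were also higher in the 10-library fit and did not pass in the 5-library fit (adjusted p = 0.0757, 0.136, 0.133, 0.0827 and 0.15). None of the 6 lower members passed in the 5-library fit either. Of these, Dppa2, a regulator of early embryonic genes, stood at 52.5, 56.9 and 52.8 FPKM against 80 and 76.4 FPKM (log2 difference -0.53, adjusted p = 0.00175 and 0.0806). Among the 11 embryonic stem cell markers, Nanog and Zfp42 were higher, and Dppa5a and Utf1 were lower in the 10-library fit alone. Genes of the 2-cell-like state, which resembles the embryo after its first division, were called in neither direction by limma at 16 tested (median -0.88), nor by limma-voom on recovered reads. In the 10-library fit 2 were lower at an unadjusted p below 0.05, where 5959 of all 15731 tested genes differed in either direction. Zscan4f, a defining gene of that state, stood at 1.64, 2.01 and 10.1 FPKM against 5.9 and 6.05 FPKM, with no value above 0 in wild type. Library 3 was above and libraries 1 and 2 below the Pcgf6 libraries (log2 difference -0.86 ± 0.65, adjusted p = 0.365).

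Epithelial junction and sorting genes were lower in the Mga libraries at 14 of 32 tested and higher at 1, with a median of -0.66. Those shares are 43.8% and 3.12%, beside 10.6% and 12% of all tested genes. Epcam, an epithelial adhesion molecule, stood at 49.7, 41.9 and 40.3 FPKM in Mga libraries 1, 2 and 3 and at 89.8 and 91.2 FPKM in the Pcgf6 libraries. Both groups were below wild type (133 to 135 FPKM), the Mga libraries further (log2 difference -1.05 ± 0.09, adjusted p = 0.000281). Pkp3, a desmosome plakophilin, stood at 2.58, 2.89 and 2.99 FPKM against 6.65 and 7.2 FPKM, the latter above the wild type range of 5.92 to 6.52 FPKM (log2 difference -1.27, adjusted p = 0.000731). Epcam and Pkp3 were the 2 members lower in the 5-library fit. Dsp, a desmosome plakin chosen after its values were seen, was the member that was higher, at 2.68, 2.11 and 1.75 FPKM against 0.908 and 0.987 FPKM (log2 difference 1.10, adjusted p = 0.00667 and 0.123). Krt42, a keratin outside the rule for naming genes, stood at 6.56, 9.93 and 6.82 FPKM against 66 and 67.3 FPKM, with wild type at 58.2 to 63.7 FPKM (log2 difference -3.11, adjusted p = 1.41e-05 and 0.00627).

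Imprinted genes, active on the maternal or the paternal copy alone, were lower at 7 of 27 and higher at 1, with a median of -0.54. Those shares are 25.9% and 3.7%, beside 10.6% and 12% of all tested genes. Peg3, a zinc finger gene expressed from the paternal copy, stood at 0.809, 2.84 and 1.71 FPKM in Mga libraries 1, 2 and 3 and at 18.4 and 18.2 FPKM in the Pcgf6 libraries, which were within the wild type range of 16.9 to 19 FPKM (log2 difference -3.44, adjusted p = 0.000924 and 0.0515). Phlda2, a growth-limiting gene of the placenta, stood at 16.8, 23.2 and 8.96 FPKM against 83.3 and 86.7 FPKM, and wild type was higher still at 159 to 164 FPKM (log2 difference -2.48, adjusted p = 0.00157 and 0.0604). None of the 27 passed in the 5-library fit, where 1 was higher and 8 were lower at an unadjusted p below 0.05. At that unadjusted threshold 3535 of all 15731 tested genes differed in either direction. Klhl13, an adaptor of a CUL3 ubiquitin ligase chosen after its values were seen, was lower in both knockouts than in wild type and lowest in the Mga libraries. It stood at 8.85, 8.67 and 10.2 FPKM, at 45.4 FPKM in both Pcgf6 libraries and at 296 to 317 FPKM in wild type (log2 difference -2.29 ± 0.09, adjusted p = 5.92e-06 and 0.00344).

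Of the Polycomb, DNA methylation and H3K9 methylation genes listed, Pcgf6, Pcgf2 and Mbd3 passed in the 5-library fit, as did 1.26% of all tested genes. Among 14 PRC1.6 subunit genes, the targeted Pcgf6 and E2f6 were higher and Cbx3 was lower. E2f6 stood at 39.9, 31.7 and 31.5 FPKM in Mga libraries 1, 2 and 3, at 18.6 and 20.9 FPKM in the Pcgf6 libraries and at 11 to 11.3 FPKM in wild type (log2 difference 0.79, adjusted p = 0.00277 and 0.0823). Cbx3, a reader of methylated histone H3, stood at 9.21, 13.4 and 13 FPKM against 23.6 and 22.3 FPKM (log2 difference -0.97, adjusted p = 0.00357 and 0.0922). Among 29 other Polycomb genes 7 were higher (24.1%) and 4 lower (13.8%), beside 12% and 10.6% of all tested genes, and Pcgf2 alone passed with only the 5 libraries. Pcgf2, a ring finger subunit of other PRC1 complexes, stood at 30.9, 30.3 and 29.8 FPKM against 55.8 and 54.1 FPKM, with wild type between them at 38.6 to 41.2 FPKM (log2 difference -0.85 ± 0.06, adjusted p = 0.000115). Cbx7, a Polycomb chromodomain protein, stood at 11.1, 20.4 and 14.5 FPKM against 36 and 35.8 FPKM (log2 difference -1.27, adjusted p = 0.00423 and 0.0922). Mbd3, a subunit of the NuRD complex, stood at 49.4, 50.3 and 47.8 FPKM against 78.1 and 83.2 FPKM (log2 difference -0.71, adjusted p = 0.00053). DNA methylation and demethylation genes were higher at 2 of 16 (12.5%) and lower at 4 (25%), and Mbd3 alone passed with only the 5 libraries. H3K9 methylation and heterochromatin genes were higher at 1 of 23 (4.35%) and lower at 5 (21.7%), and none passed in the 5-library fit.

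**Figure D3:**
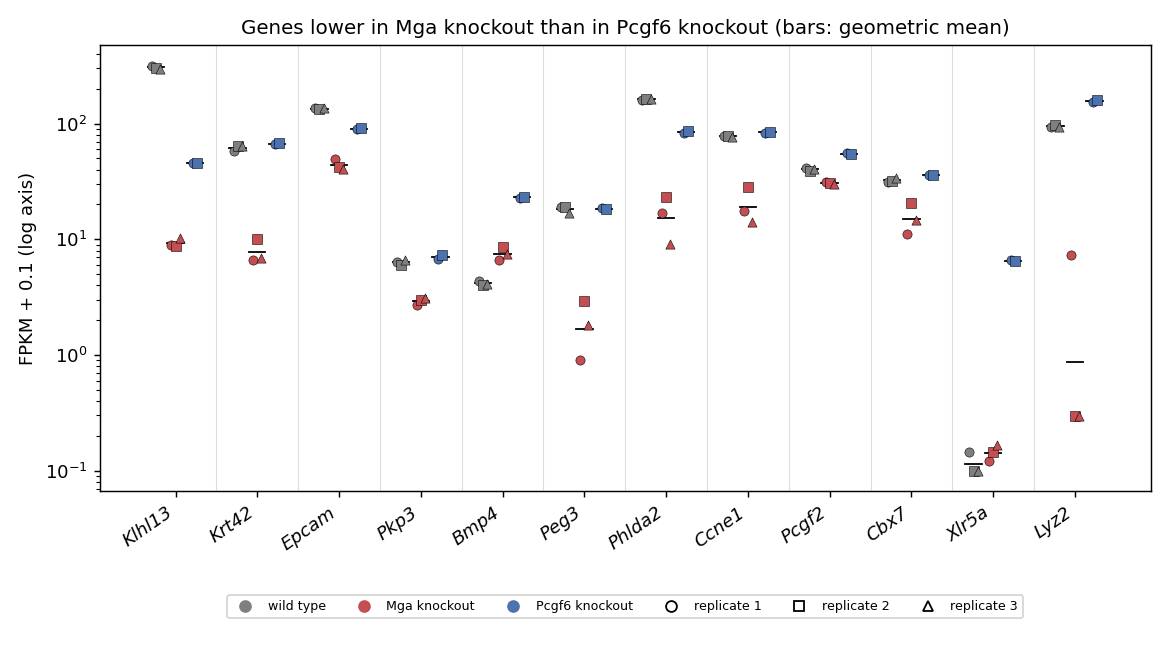
FPKM + 0.1 on a log axis for 12 genes that were lower in the Mga libraries than in the Pcgf6 libraries, with wild type in grey, bars for geometric means and marker shapes for replicates. Klhl13 and Epcam descend from wild type to Pcgf6 to Mga libraries, Bmp4 and Xlr5a are highest in the Pcgf6 libraries, and Peg3 in the Pcgf6 libraries is at the wild type level of 16.9 to 19 FPKM.

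MYC target and ribosome biogenesis genes were lower at 12 of 32 and higher at none (median -0.26). In the 5-library fit none passed, and 12 were lower at an unadjusted p below 0.05. Polr1a, the large subunit of RNA polymerase I, stood at 6.32, 9.48 and 7.91 FPKM in Mga libraries 1, 2 and 3 and at 16 and 14.8 FPKM in the Pcgf6 libraries (log2 difference -0.97, adjusted p = 0.00369 and 0.0927). Of 24 p53 targets 8 were higher and 2 lower (median 0.58). With only the 5 libraries none of the 8 passed, 9 members were higher at an unadjusted p below 0.05, and Pmaip1, which was lower, alone passed. Trp53inp1, which promotes cell death and autophagy, was higher at 33.3, 26.4 and 32.5 FPKM against 15.7 and 16.2 FPKM (log2 difference 0.94, adjusted p = 0.00112 and 0.0557). Pmaip1, another cell death gene, was lower at 13, 10.9 and 13.9 FPKM against 32.7 and 31.9 FPKM (log2 difference -1.36 ± 0.10, adjusted p = 0.000112). Hk2, a hexokinase of glycolysis, stood at 29, 36.2 and 36.8 FPKM against 69.9 and 68.1 FPKM, with wild type at 42 to 42.2 FPKM between them (log2 difference -1.03, adjusted p = 0.00059). Glycolysis and hypoxia genes were higher at 2 of 28 (7.14%) and lower at 4 (14.3%). Ccne1, the G1 cyclin E1, stood at 17.5, 28.3 and 13.9 FPKM against 83.1 and 85 FPKM, the latter above the wild type range of 77.1 to 78.7 FPKM (log2 difference -2.14, adjusted p = 0.000899 and 0.0515). In the S phase and E2F target list 4 of 29 were higher (13.8%) and 5 lower (17.2%). The lists in this paragraph stand beside 12% higher and 10.6% lower over all tested genes.

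Fibroblast markers were higher at 5 of 22 (22.7%, beside 12% of all tested genes) and lower at none (median 0.68). By library the medians were 1.90, 0.00 and 0.35 in Mga libraries 1, 2 and 3. Without Mga library 1 the median was 0.10, with 8 higher and 2 lower, in a fit that called 2522 of all 15731 tested genes higher and 2316 lower. With only the 5 libraries none passed, and 5 were higher at an unadjusted p below 0.05, where 3535 of all 15731 tested genes differed in either direction. Lox, which links collagen, stood at 91.3, 37 and 40.5 FPKM against 8.77 and 8.89 FPKM (log2 difference 2.53, adjusted p = 0.00163 and 0.0609), and Timp3, an inhibitor of matrix proteases, at 13.1, 6.47 and 7.14 FPKM against 1.52 and 1.55 FPKM (log2 difference 2.39, adjusted p = 0.000971 and 0.0515). Library 1 was the highest in both genes. The part of other cells in any of these lists was not tested.

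**Figure D4:**
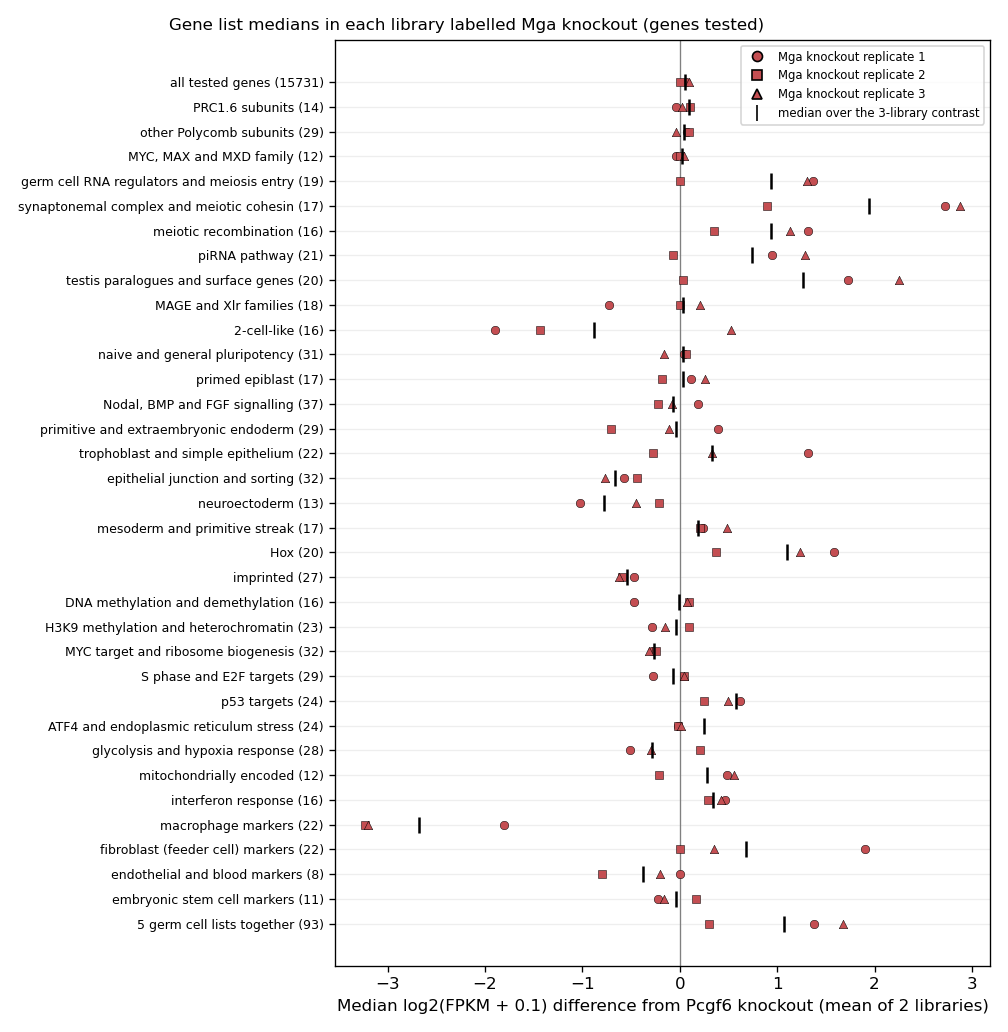
Median log2(FPKM + 0.1) difference from the mean of the 2 Pcgf6 libraries for each gene list (rows, with the number of genes tested), in Mga libraries 1 (circle), 2 (square) and 3 (triangle) and over the contrast (bar). The 5 germ cell lists lie right of 0 in libraries 1 and 3 and nearer to 0 in library 2 (together 1.38, 0.30 and 1.68), and macrophage markers lie far left in all of them.

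Set against wild type levels, the 2-fold calls fell into several patterns. All 729 genes called higher by at least 2-fold and all 715 called lower had no overlap between the Mga and Pcgf6 libraries. Selection for such a difference favours this. Over all tested genes the Mga libraries were above both Pcgf6 libraries at 25.6% and below both at 21.2%. Positions against wild type were not counted over all tested genes, so the counts below only describe the genes selected. Of the 729 higher, 174 had both knockouts above all wild type libraries, as Ddx4 and Mov10l1 did. In 317 the Mga libraries were above and the Pcgf6 libraries overlapped wild type, and in 152 the Mga libraries were above and the Pcgf6 libraries below. In 69 the Mga libraries overlapped wild type and the Pcgf6 libraries were below. Of the 715 lower, 223 had the Mga libraries below and the Pcgf6 libraries above wild type, 165 had the Pcgf6 libraries above and the Mga libraries overlapping wild type, 161 had both below, as Klhl13 and Epcam did, and 153 had only the Mga libraries below.

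Median differences by chromosome were small over the contrast, and uneven among the Mga libraries. Relative to Pcgf6 knockout, no autosome and not the X passed 0.2 from the median of all genes over the contrast. The 5 that did were the mitochondrial genome (0.25), chromosome Y (-0.35, 10 genes tested) and 3 unplaced scaffolds of 1 or 2 genes. In Mga library 1 alone, medians against Pcgf6 knockout were 0.48, 0.41, 0.45, 0.37 and 0.30 on chromosomes 1, 6, 12, 18 and 14. Mga library 2 was at -0.08 to 0.05 there, and library 3 at 0.07 to 0.15. Against wild type, Mga library 1 had medians of 0.57, 0.53, 0.52, 0.44 and 0.43 on chromosomes 1, 6, 12, 18 and 14, where Mga library 2 was at 0.04 to 0.11 and library 3 at 0.10 to 0.27. Chromosomes 11 and 16 were lower than wild type in both knockouts, at -0.36 to -0.11 and -0.24 to -0.10 in the Mga libraries and at -0.31 and -0.30, and -0.29 and -0.28, in the Pcgf6 libraries. Chromosome Y was also low in both, at -2.68 to -2.15 in the Mga libraries and -2.27 and -2.05 in the Pcgf6 libraries. Genes called higher numbered 127, 104, 85, 92 and 46 on chromosomes 1, 6, 12, 14 and 18, and those called lower 74, 97, 25, 45 and 32. Chromosome 9 (130 higher and 76 lower) and the X (95 and 49) also had more genes called higher. The part of the chromosome shifts in the calls was not tested gene by gene. A fit without the 5 sequences past 0.2 still tested 15702 genes and kept chromosomes 1, 6, 11, 12, 14, 16 and 18. It therefore says nothing about the shifts of those chromosomes. Of the 3550 genes called, 3540 also passed in it, and the other 10 lie on the sequences left out.

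**Figure D5:**
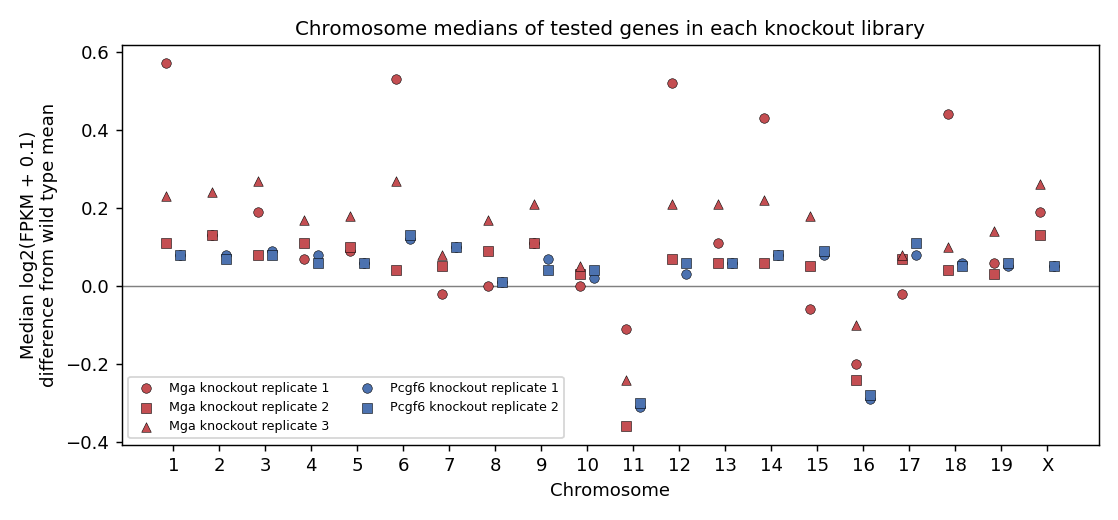
Median log2(FPKM + 0.1) difference of tested genes from the wild type mean on each autosome and the X, in each Mga library (red) and Pcgf6 library (blue). Mga library 1 stands above the others on chromosomes 1, 6, 12, 14 and 18, and all 5 libraries lie below 0 on chromosomes 11 and 16.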

How the data were processed

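The values analysed are FPKM per gene, deposited by the authors as 1 file per library. The submitters' processing notes name GRCm38 and the tools TopHat2 (2.0.12), Bowtie2 (2.2.3) and HTSeq (0.6.0), and no source used here states the scaling. The NEBNext Ultra kit named in the labels' protocols does not mark strand, so a gene and its antisense partner cannot be told apart. Each file listed 30460 genes, of which 30250 had a symbol in GENCODE M21. Whole reads were recovered from the FPKM steps, 77.9% of genes above 0 giving whole reads within 0.005 at the annotated length and 22.1% at a length found from the values.

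The test was limma (3.58.1, in R 4.3.3) for genes that reached 0.5 FPKM in 2 or more libraries, on log2(FPKM + 0.1), which understates changes of low genes. A gene silent elsewhere could pass this filter through 1 group alone, and could then only be higher in that group. All 10 libraries entered 1 fit with group as its term and a variance trend, and p-values were adjusted by Benjamini-Hochberg over 15731 genes, with a threshold of 0.05. On simulated data, error kept to the threshold where groups shared a spread and exceeded it in the 10-library fit where groups had the spreads seen here. On recovered reads, limma-voom called 3454 genes. Genes with no reads in a group got a floor of 3 reads over the group, those with 1 to 3 reads a ratio of rates with an exact 95% interval. With no molecular identifiers, reads may repeat a molecule, so intervals and floors cover counting error only. Promoters are RefSeq windows of GRCm38.p6.

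The comparison, lists and naming rule were chosen with earlier results of these data known. The rule takes the targeted genes, the 12 largest differences in each direction among called genes with a mean of at least 2 FPKM in 1 group, no overlap between groups and no predicted or Y-linked model, and up to 4 members of each list by smallest p, or where fewer than 2 were called the 2 with the highest mean. Not all of these are named. Same-numbered libraries of the 2 knockouts are not paired by the labels.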

Additional observations from a re-analysis of the deposited data

How the results depend on the processing

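Against 3550 genes called in all 10 libraries, 198 were called with only the 5 libraries compared, 2283 with a spread per group and 2182 with only 4 libraries (Mga libraries 1 and 3 against both Pcgf6 libraries, an alternative chosen after seeing the data). Leaving out each library in turn gave 815 to 7003, the extremes being without Pcgf6 library 2 and without Mga library 2. Leaving out a Pcgf6 library leaves 1, which is then assumed to vary like the other groups. Other filters, scalings, pseudocount 1 and limma-voom gave 3045 to 3637. List members called numbered 227, 36 with only the 5 libraries, and 98 to 415 leaving out each library. Chromosomes and other sequences more than 0.2 from the median of all genes numbered 5, 3 with pseudocount 1, 0 once those 5 were left out, by construction, 7 with no filter on low values or with 4 libraries, and 4 to 7 leaving out each library. The share of promoters of genes called higher that held CACGTG was 11.5%, or 19.2% with only the 5 libraries. The log2 difference of Mga ran from -0.59 (passed, without Mga library 2) to 0.05 (reversed, without Mga library 1) leaving out each library. In the fit of 4 libraries it was also -0.59 and did not pass (adjusted p = 0.118). That of L3mbtl2 ran from -0.14 to 0.18, reversed without Mga library 1 (0.18) or Pcgf6 library 2 (0.01). Apart from what leaving out or construction shows, the cause of these moves was not tested. Of 130 named genes called, 39 passed under all 21 alternatives, 3 under the 20 that tested them, 87 failed with only the 5 libraries and none changed sign. Alternatives that change only the spread could not change a sign.

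With the replicate number as a block, 2393 genes were called. The labels do not pair the libraries by number. Deviations of same-numbered Mga and Pcgf6 libraries from their group means correlated at 0.019 and -0.003. The deviations of the 2 Pcgf6 libraries mirror each other, so these values cannot tell if same-numbered libraries were prepared together. Depth limits genes with few reads, where 1 read of a 2 kb gene is up to 0.0258 FPKM.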

Other observations

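Other genes that were lower in the Mga libraries and passed in both the 10-library and the 5-library fit were chosen after their values were seen. Capn11, a calpain protease of the testis, stood at 0.0744, 0.168 and 0.108 FPKM in Mga libraries 1, 2 and 3, at 3.64 and 3.77 FPKM in the Pcgf6 libraries and at 1.9 to 2.25 FPKM in wild type (log2 difference -4.16, adjusted p = 1.56e-05 and 0.0113). Pla2g1b, a secreted phospholipase, stood at 22.7 ± 3.32 FPKM (SD, n = 3) against 104 and 111 FPKM, with wild type at 128 to 131 FPKM (log2 difference -2.25, adjusted p = 1.56e-05 and 0.00668). Pnma5 was at the wild type level of 4.27 to 4.57 FPKM in the Mga libraries (3.87 to 4.56 FPKM) and at 17.5 and 16.8 FPKM in the Pcgf6 libraries (log2 difference -1.99, adjusted p = 5.32e-05 and 0.00915). Sap18b, a copy of a gene for a histone deacetylase cofactor, stood at 1.96, 0.688 and 1.71 FPKM against 14.5 and 16.6 FPKM, and wild type was at 0.643 to 0.863 FPKM (log2 difference -3.45, adjusted p = 0.000742 and 0.0434). Phb, prohibitin of the inner mitochondrial membrane, stood at 72.8, 83.1 and 78.4 FPKM against 189 FPKM in both Pcgf6 libraries, with wild type between them at 145 to 153 FPKM (log2 difference -1.27, adjusted p = 2.38e-05 and 0.0116). Hmga1, an architectural chromatin protein, stood at 292, 289 and 298 FPKM against 611 and 629 FPKM, and wild type was at 709 to 785 FPKM (log2 difference -1.08, adjusted p = 4.76e-05 and 0.0188).

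Genes outside the germ cell lists were also higher in the Mga libraries in both fits. Prelp, a leucine-rich matrix proteoglycan, stood at 7.47, 4.36 and 4.12 FPKM against 0.0714 and 0.129 FPKM (log2 difference 4.72, adjusted p = 7.92e-05 and 0.00999). Zfp541, a zinc finger gene of meiotic cells, stood at 11.1, 4.87 and 11.1 FPKM against 0.151 and 0.113 FPKM (log2 difference 5.21, adjusted p = 6.17e-05 and 0.0114). Mga library 2 was the lowest Mga value for Zfp541 and not for Prelp.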
